A study of Mus musculus with 18 samples.

Results

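AP-1 and immediate-early genes were followed in whole mouse kidneys after ischemia and reperfusion, with or without deletion of *Cxcl12* or *Myc* in the tubule. The 10 genes were *Fos*, *Fosb*, *Fosl1*, *Fosl2*, *Jun*, *Junb*, *Atf3*, *Egr1*, *Ier3* and *Klf6*, of 45706 genes in the count tables. They were chosen by symbol, with earlier results of these data known. All 10 passed the filter on low counts in both cohorts. Mice were C57BL/6, and every kidney was taken 12 h after 22.5 min of bilateral ischemia, so that no uninjured kidney serves as a reference. The *Cxcl12* KO group (n = 5) carried floxed *Cxcl12* on both alleles with Pax8rtTA and TetOCre, and its controls (n = 3) carried the floxed alleles and Pax8rtTA without TetOCre. The *Myc* KO group (n = 5) and its controls (n = 5) were built in the same way on floxed *Myc*. The mice were young adult male littermates, and doxycycline in the drinking water, followed by a washout, induced the recombinase in Pax8-expressing tubule cells. Other cells of the kidney keep both genes, and a whole kidney also holds vessels, glomeruli, stroma and leukocytes.

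AP-1 is a family of transcription factors that bind DNA as pairs, most often of a FOS with a JUN protein, and ATF3 can join such pairs. Immediate-early genes are transcribed within minutes of a stimulus by factors already present in the cell, many of them activated by MAP kinases, and their messages decay quickly. They are known to be induced in the kidney by ischemia. *Egr1* and *Klf6* encode zinc finger transcription factors, and *Ier3* encodes a stress-induced regulator of cell survival.

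RefSeq promoter windows on GRCm38.p6, from 250 bases before to 50 bases after the start, were matched for 8 of the 10 genes, all but *Fosl1* and *Egr1*. They were searched on both strands for 7 motifs. These were AP-1 (TGANTCA), the cAMP response element CRE (TGACGTCA), its core (TGACGT, contained in the CRE and added after the sequences were seen), the MYC E-box (CACGTG), EGR (GCGNGGGCG), the CArG box of serum response factor and the NF-kappaB site. Bases before the start are shown for *Fos*, whose level differed in the *Myc* cohort, for its paralog *Fosb*, and for *Klf6*, the sole member window with an E-box. Capitals mark the matches, and bases that GENCODE places in an exon are left out.

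Fos, chr12:85473661-85473889, plus strand: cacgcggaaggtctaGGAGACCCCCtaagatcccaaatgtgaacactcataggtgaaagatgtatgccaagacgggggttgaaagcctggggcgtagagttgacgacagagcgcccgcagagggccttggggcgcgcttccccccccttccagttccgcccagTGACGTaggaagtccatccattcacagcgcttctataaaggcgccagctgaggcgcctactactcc

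Fosb, chr7:19310052-19310248, minus strand: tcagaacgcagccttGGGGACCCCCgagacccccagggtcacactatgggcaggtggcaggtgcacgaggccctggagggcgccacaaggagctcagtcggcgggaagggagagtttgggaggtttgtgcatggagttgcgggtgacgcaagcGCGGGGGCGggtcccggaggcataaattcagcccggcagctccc

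Klf6, chr13:5861362-5861481, plus strand: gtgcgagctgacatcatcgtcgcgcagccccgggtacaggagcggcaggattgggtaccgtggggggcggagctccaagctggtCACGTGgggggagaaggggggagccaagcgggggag

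The *Fos* window holds a CRE core from position -66 to -61, counted from the start, and an NF-kappaB match from -214 to -205. The *Fosb* window holds an EGR match from -50 to -42 and an NF-kappaB match from -188 to -179, and the *Klf6* window holds the E-box from -43 to -38. Among the other windows, *Fosl2* holds an EGR match and 2 overlapping NF-kappaB matches, *Atf3* a CRE core and *Ier3* an NF-kappaB match, and *Jun* and *Junb* hold none of the 7 motifs. No member window holds the full AP-1 motif, the full CRE or a CArG box as searched. Of all 32851 windows in the table, 7.81% hold the AP-1 motif, 1.79% the CRE, 7.51% its core, 7.15% the E-box, 5.55% the EGR motif, 1.63% a CArG box and 8.46% an NF-kappaB match. A match describes letters in the window and not binding.

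Reads on genes numbered from 12918220 to 29749500 per kidney. In 6 kidneys under 5% of reads were unmapped, and each of these had more gene reads than any of the other 12; 2 came from each *Myc* group, 2 from the *Cxcl12* KO group and 0 from its controls. Levels are given as CPM, reads per 1000000 gene reads with TMM scaling. A KO effect is the log2 fold change of KO over control with its standard error (SE) from edgeR's quasi-likelihood test, called when the p-value, adjusted over all genes by the Benjamini-Hochberg method, was under 0.05. The labels do not say whether kidneys of a group came from separate litters or surgery days, and p-values measure the spread between these kidneys. The target of the *Myc* cohort, *Myc*, stood at 31.0 ± 3.9 CPM (SD, n = 5) after deletion and at 94.9 ± 14.5 CPM (SD, n = 5) without it, a log2 fold change of -1.61 (SE 0.12, edgeR adjusted p = 8.8e-05). That of the other cohort, *Cxcl12*, stood at 32.3 ± 6.1 CPM (SD, n = 5) after deletion and at 53.5 ± 7.9 CPM (SD, n = 3) without it, a log2 fold change of -0.73 (SE 0.15) that did not pass the test (edgeR adjusted p = 0.094).

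The first question was whether the genes differed when tubules lacked *Myc*. *Fos* and *Fosl2* rose in *Myc* KO kidneys, and 9 of the 10 genes had a higher mean there, all but *Fosl1*. The median log2 fold change of the 10 was 0.53, against -0.00083 over all 14936 genes tested. The 2 called genes compare with 0.355% of all genes called higher. At an unadjusted p under 0.05, 7 of the 10 were higher, against 10.6% of all genes, and in DESeq2 4 were called, *Fos*, *Fosl2*, *Jun* and *Junb*, against 3.88%. The 10 were chosen with earlier results known, so these shares of all genes describe them and are no independent test. In bulk tissue, more cells that express a gene and more RNA per cell cannot be told apart.

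*Fos* encodes the FOS protein that gave the family its name and lies on chromosome 12 of GRCm38 from 85473890 to 85477273. In *Myc* KO kidneys it had 87.4, 111, 134, 110 and 97.2 CPM. In *Myc* control kidneys it had 36.7, 65.3, 77.5, 64.9 and 67.6 CPM. Every KO kidney lay above every control kidney, as in 2.05% of all genes, and the lowest control lay apart from the other 4. The log2 fold change was 0.79 (SE 0.17, edgeR adjusted p = 0.041), a 1.73-fold difference. The call held in 3 of 10 fits that each left out 1 kidney, where the log2 fold change ran from 0.65 to 0.89 and the edgeR adjusted p from 0.022 to 0.12.

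*Fosl2* encodes FRA-2, a FOS relative that lacks the strong activation domain of FOS, and lies on chromosome 5 from 32135801 to 32157842. In *Myc* KO kidneys it had 207, 204, 248.8, 247 and 246 CPM. In *Myc* control kidneys it had 155, 137, 197, 127 and 156 CPM. The groups did not overlap, and the highest control kidney, replicate 3, came within 10 CPM of the lowest KO kidney. The log2 fold change was 0.58 (SE 0.12, edgeR adjusted p = 0.032). This call too held in 3 of 10 fits without 1 kidney, with log2 fold changes from 0.52 to 0.68 and edgeR adjusted p-values from 0.012 to 0.099.

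**Figure D1:**
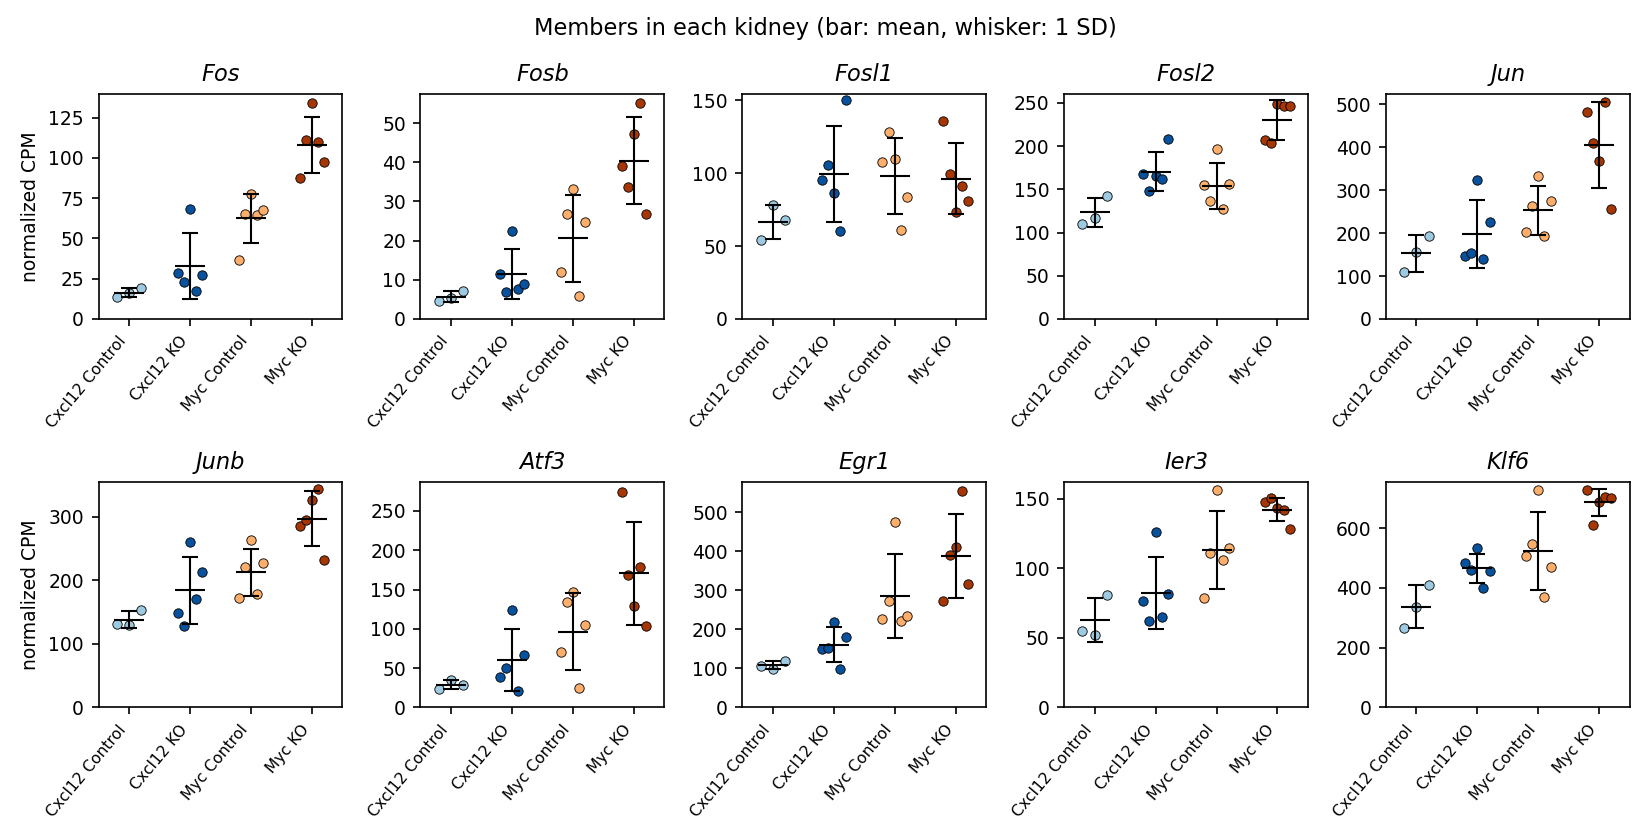
Normalized CPM of the 10 genes (y axis of each panel, starting at 0) in each of the 18 kidneys (points) by group (x axis), with bars for the mean and whiskers for 1 SD. In the *Myc* cohort the KO points of *Fos* and *Fosl2* lie above all control points, in the *Cxcl12* cohort only those of *Fosl2* do, and *Cxcl12* KO replicate 3 lies highest of its group for *Fos* (68.5 CPM) and *Fosb* (22.5 CPM).

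Within the FOS family the other members did not pass the test. *Fosb*, the closest relative of *Fos*, ran from 26.9 to 55.0 CPM in *Myc* KO and from 5.91 to 33.2 CPM in *Myc* control kidneys, a log2 fold change of 0.97 (SE 0.36, edgeR adjusted p = 0.16). *Fosl1*, which encodes FRA-1, ran from 73.2 to 136 CPM in KO and from 61.2 to 128 CPM in control kidneys, a log2 fold change of -0.03 (SE 0.20, edgeR adjusted p = 0.94). Exons of *Fosl1* share 1163 of their 2033 bases with *Ccdc85b* on the opposite strand, and the counts used ignore the strand, so that reads there were set aside as ambiguous.

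The JUN proteins pair with the FOS proteins. *Jun* had 482, 410, 369, 505 and 255 CPM in *Myc* KO and 201, 263, 333, 193 and 275 CPM in *Myc* control kidneys, and only KO replicate 5 lay within the control range. Its log2 fold change was 0.68 (SE 0.19, edgeR adjusted p = 0.089, DESeq2 adjusted p = 0.012). *Junb* had 285, 296, 327, 344 and 232 CPM in *Myc* KO and 173, 222, 263, 179 and 228 CPM in control kidneys, again with only KO replicate 5 within the control range. Its log2 fold change was 0.48 (SE 0.13, edgeR adjusted p = 0.087, DESeq2 adjusted p = 0.014). *Jun* shares 232 exon bases with the antisense gene *Junos* and *Junb* shares 173 with *Prdx2*.

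The remaining genes were higher in *Myc* KO kidneys without passing the test. *Atf3*, a stress-induced factor, ran from 103 to 274 CPM in KO and from 25.3 to 146 CPM in control kidneys, with a log2 fold change of 0.82 (SE 0.38, edgeR adjusted p = 0.23). *Egr1* ran from 272 to 555 CPM in KO and from 221 to 476 CPM in control kidneys (log2 fold change 0.44, SE 0.23, edgeR adjusted p = 0.29). Control replicate 3 held the highest control value of *Egr1*, and the other 4 controls lay between 221 and 272 CPM. The *Egr1* log2 fold change was 0.70 without that control and 0.28 without KO replicate 4. *Ier3* ran from 128 to 150 CPM in KO and from 78.9 to 157 CPM in control kidneys (log2 fold change 0.33, SE 0.14, edgeR adjusted p = 0.21). *Klf6* ran from 609 to 727 CPM in KO and from 370 to 728 CPM in control kidneys (log2 fold change 0.39, SE 0.15, edgeR adjusted p = 0.16). For both genes 4 of 5 controls lay below every KO kidney and control replicate 3 passed the highest KO value. Without that kidney edgeR called 7 of the 10 genes, *Fos*, *Fosl2*, *Jun*, *Junb*, *Egr1*, *Ier3* and *Klf6*, and 877 of all genes. Without any 1 of *Myc* KO replicates 2, 3, 4 and 5 or control replicates 2, 4 and 5 it called none of the 10. Those fits called 21 to 108 of all genes, and the fit with every kidney called 246, so that the counts of members moved with those of all genes.

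The 6 kidneys with few unmapped reads were also left out. Among the other 3 KO and 3 control kidneys of the *Myc* cohort none of the 10 genes was called, and only 8 of all genes were. All 10 were higher, with a median log2 fold change of 0.65, and 9 had an unadjusted p under 0.05. The share of all genes at that unadjusted p is not given for this fit, so the 9 cannot be set against it. *Fos* then had a log2 fold change of 0.65 and *Fosl2* of 0.66 (edgeR adjusted p = 0.056 for each). Among the 2 KO and 2 control kidneys with few unmapped reads, *Fos* had 134 and 97.2 CPM in KO and 36.7 and 77.5 CPM in control kidneys, and *Fosl2* had 248.8 and 246 CPM in KO and 155 and 197 CPM in control kidneys. For both genes no KO kidney of the full cohort overlapped a control kidney. The same order within either set was therefore given in advance and adds no support.

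The same comparison was made for *Cxcl12*. All 10 genes had a higher mean in *Cxcl12* KO than in *Cxcl12* control kidneys, with a median log2 fold change of 0.51 against 0.00083 over all 15154 genes tested, but edgeR called none of them. It also called 0% of all genes higher and none lower. At an unadjusted p under 0.05, 7 of the 10 were higher, against 6.41% of all genes, and DESeq2 called only *Fosl2* (adjusted p = 0.029), against 1.05% called higher. Without *Cxcl12* control replicate 1 the 7 fell to 2, and without control replicate 2 to 3. All 10 stayed higher in each of the 8 fits that left out 1 kidney. Shares of all genes at that unadjusted p are not given for these fits. The 2 kidneys with few unmapped reads in this cohort were both KO. Without them all 10 were higher, with a median log2 fold change of 0.60 and *Jun* at 0.58. None of the 10 was called there, against 80 of all genes.

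*Fosl2* had 168, 148, 166, 162 and 208 CPM in *Cxcl12* KO and 110, 117 and 143 CPM in *Cxcl12* control kidneys. It was the sole member without overlap between the groups, as in 4.96% of all genes with KO above control, and its log2 fold change was 0.46 (SE 0.13, edgeR adjusted p = 0.17). *Fos* had 28.4, 22.8, 68.5, 17.1 and 27.3 CPM in KO and 13.9, 15.9 and 19.4 CPM in control kidneys. KO replicate 3 stood above the other KO kidneys and KO replicate 4 lay within the control range, and the log2 fold change was 0.98 (SE 0.39, edgeR adjusted p = 0.32). *Fosb* ran from 6.90 to 22.5 CPM in KO and from 4.54 to 7.23 CPM in control kidneys, a log2 fold change of 0.99 (SE 0.37, edgeR adjusted p = 0.30). *Atf3* ran from 21.0 to 124 CPM against 23.1 to 34.4 CPM in controls, with a log2 fold change of 1.05 (SE 0.45, edgeR adjusted p = 0.36). The log2 fold changes of the other 6 lay between 0.37 for *Jun* and 0.58 for *Fosl1*, with edgeR adjusted p-values from 0.23 to 0.60. KO replicate 3 also had the lowest gene reads of its group. Without it the log2 fold change fell to 0.54 for *Fos*, 0.61 for *Fosb*, 0.61 for *Atf3*, 0.12 for *Jun*, 0.18 for *Ier3* and 0.25 for *Junb*, and the median of the 10 was 0.45. Other single kidneys moved *Jun* (0.17 without control replicate 1 and 0.57 without control replicate 3), *Ier3* (0.61 without control replicate 3) and *Fosl1* (0.38 without KO replicate 5).

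**Figure D2:**
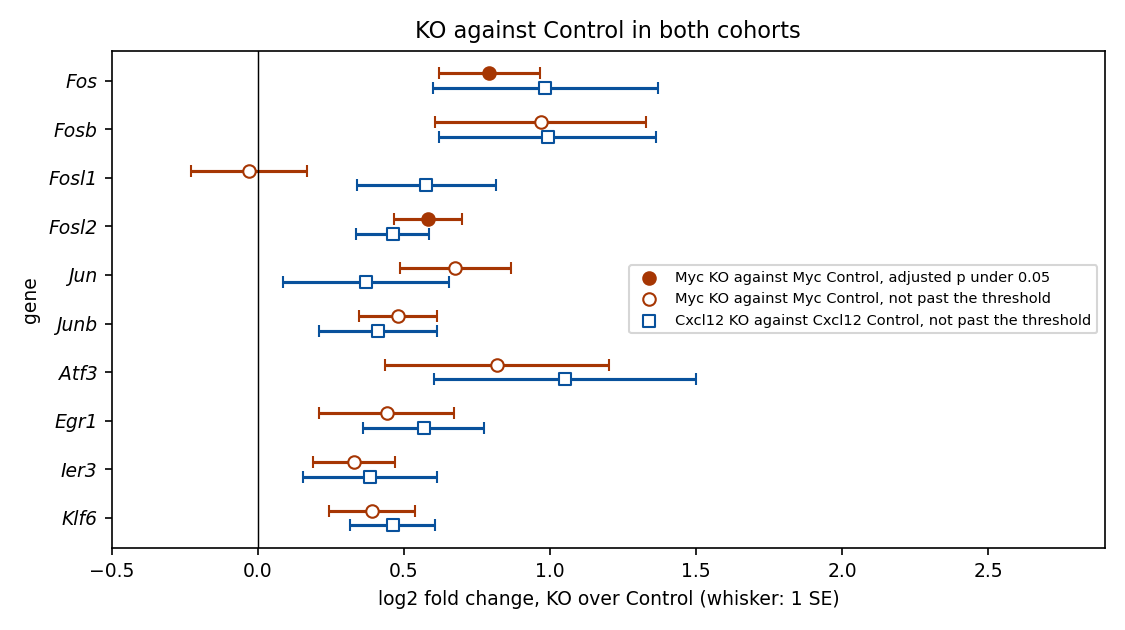
Log2 fold change of KO over control (x axis, whiskers 1 SE) of the 10 genes (y axis), with circles for the *Myc* and squares for the *Cxcl12* cohort; filled symbols passed the adjusted threshold. Only *Fos* (0.79) and *Fosl2* (0.58) in the *Myc* cohort are filled, and *Fosl1* in the *Myc* cohort (-0.03) is the sole value below 0.

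Whether the KO effects differed between the cohorts was tested over all 18 kidneys. None of the 10 genes was called, against 0.0692% of 15903 genes, and 0 had an unadjusted p under 0.05, against 11.4% of all genes. The *Myc* minus the *Cxcl12* effect ran from -0.61 (SE 0.34) for *Fosl1* to 0.30 (SE 0.36) for *Jun* on the log2 scale. Its SE ran from 0.18 for *Fosl2* to 0.65 for *Atf3*, and DESeq2 also called 0. A p that misses the threshold does not show that the effects were alike.

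The control groups of the cohorts stood at different levels. Mean CPM was higher in *Myc* control than in *Cxcl12* control kidneys for all 10 genes, by 3.80 times for *Fos* (62.4 ± 15.2 against 16.4 ± 2.8 CPM, SD, n = 5 and 3), 3.60 times for *Fosb*, 3.35 times for *Atf3* and 2.65 times for *Egr1*, down to 1.25 times for *Fosl2*. The ranges were apart for *Fos*, *Junb* and *Egr1*, and the median ratio over 15903 genes was 0.998, with 6.23% of genes apart in this direction. Marker sums of the same controls were also apart, with neutrophil markers at 42.6 to 226 against 18.4 to 25.9 CPM and injured tubule markers at 2586 to 3386 against 1613 to 2440 CPM, and their part in the ratios was not tested. Genotype, litter and day of surgery of the cohorts cannot be told apart here, and the ratios were not tested.

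Levels were also ordered per length, as reads per kilobase of exon not shared with other genes scaled like CPM (RPKM). *Fosb* was lowest in all 4 groups, from 0.913 ± 0.222 RPKM (SD, n = 3) in *Cxcl12* control to 6.46 ± 1.77 RPKM (SD, n = 5) in *Myc* KO kidneys, and its range lay below that of the next gene in every group. *Klf6* was highest in 3 groups, with 156 ± 10 RPKM (SD, n = 5) in *Myc* KO kidneys, and *Fosl1* in *Cxcl12* KO kidneys, with 114 ± 38 RPKM (SD, n = 5). The upper 5 places were held by *Klf6*, *Fosl1*, *Junb*, *Ier3* and *Jun* in every group, with ranges that met among these 5 from place to place. *Egr1* and *Atf3* followed in places 6 and 7. *Fos* and *Fosl2* held places 8 and 9, with *Fosl2* above *Fos* in both *Cxcl12* groups and *Fos* above *Fosl2* in both *Myc* groups. Their ranges were apart in *Cxcl12* control and *Myc* KO kidneys and met in the other groups.

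How the genes moved together within groups was measured over 18 kidneys, as deviations of log2 CPM from the group mean. Against *Fos*, 5 of 9 relations passed a permutation test within groups after Benjamini-Hochberg adjustment over the 9. They were *Ier3* (Pearson r = 0.86, permutation adjusted p = 0.0030; Spearman rho = 0.76, permutation adjusted p = 0.0073), *Junb* (r = 0.71, adjusted p = 0.029; rho = 0.69, adjusted p = 0.0073), *Jun* (r = 0.68, adjusted p = 0.029; rho = 0.61, adjusted p = 0.023), *Egr1* (r = 0.66, adjusted p = 0.037; rho = 0.63, adjusted p = 0.023) and *Fosb* (r = 0.63, adjusted p = 0.0495; rho = 0.73, adjusted p = 0.0073). *Atf3* (r = 0.51), *Klf6* (r = 0.41), *Fosl2* (r = 0.22) and *Fosl1* (r = -0.02) did not pass, with permutation adjusted p from 0.12 to 0.94. Without *Cxcl12* KO replicates 3 and 4, the kidneys farthest from the median of *Fos*, only *Ier3* passed by both measures (r = 0.79, permutation adjusted p = 0.036; rho = 0.68, permutation adjusted p = 0.040). *Junb* then passed by r alone (r = 0.63, permutation adjusted p = 0.038; rho = 0.59, permutation adjusted p = 0.065) and *Fosb* by rho alone (r = 0.48, permutation adjusted p = 0.35; rho = 0.67, permutation adjusted p = 0.040). The relations of *Jun* (r = 0.44, rho = 0.44) and *Egr1* (r = 0.54, rho = 0.53) were weaker without those kidneys and passed by neither measure. Among the 12 kidneys outside the 6 with few unmapped reads, r was 0.89 for *Ier3*, 0.81 for *Junb*, 0.80 for *Jun*, 0.75 for *Egr1* and 0.57 for *Fosb*, and none passed by r (permutation adjusted p from 0.11 upward) or by rho (from 0.090 upward). The 6 kidneys alone, 2 from each of 3 groups, give too few independent deviations for a value of their own. The relations share the kidneys and their scaling. How many of all genes vary as closely with *Fos* was not computed, so the relations cannot be called particular to these genes.

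**Figure D3:**
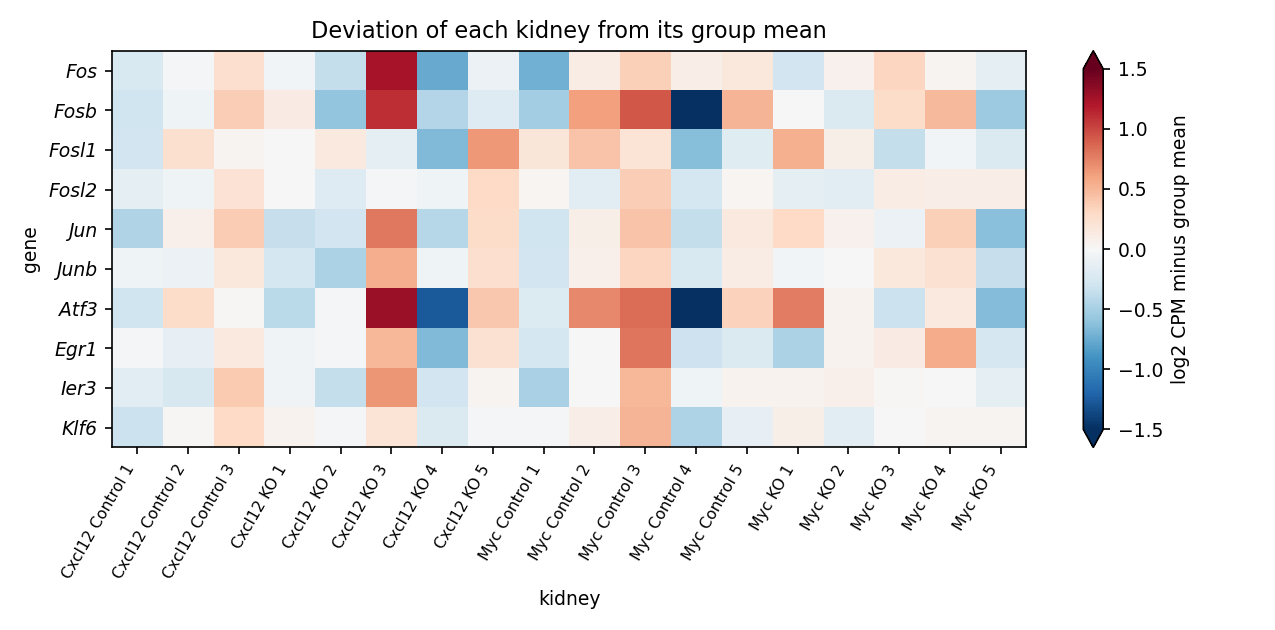
Deviation of log2 CPM from the mean of its group (colour, capped at 1.5 in either direction) for the 10 genes (rows) in the 18 kidneys (columns). *Cxcl12* KO replicate 3 is high for *Fos* (1.24), *Fosb* (1.11) and *Atf3* (1.29). *Myc* control replicate 3 lies above its group mean for all 10 genes, though by only 0.20 for *Fosl1*. *Myc* control replicate 4 is low for *Fosb* (-1.53) and *Atf3* (-1.69) but not for *Fos* (0.10).

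Other genes of the pathway were taken from a list of 87, of which 84 were tested in each cohort. That list too was chosen with earlier results of these data known, so shares of all genes beside it are a description. In *Myc* KO kidneys 71 of the 84 were higher, against 49.9% of all genes, with a median log2 fold change of 0.25. edgeR called 2, *Lif* and *Arc*, both higher, against 0.355% of all genes called higher. DESeq2 called 20, all higher, against 3.88%, and at an unadjusted p under 0.05, 34 were higher and 0 lower, against 10.6% of all genes higher. *Lif* encodes a cytokine of the IL-6 family and is counted among genes that AP-1 can activate. It had 157, 256, 228, 182 and 184 CPM in KO and 68.8, 106, 104, 64.9 and 91.0 CPM in control kidneys, a log2 fold change of 1.22 (SE 0.17, edgeR adjusted p = 0.010). *Arc*, an immediate-early gene best known from neurons, had 33.9, 33.6, 35.3, 37.2 and 30.7 CPM in KO and 16.7, 22.3, 20.3, 15.95 and 23.0 CPM in control kidneys, a log2 fold change of 0.80 (SE 0.11, edgeR adjusted p = 0.010). Neither gene's groups overlapped, and both calls held in all 10 fits without 1 kidney. In the *Cxcl12* cohort *Lif* had a log2 fold change of 0.78 (SE 0.38, edgeR adjusted p = 0.41), or 0.42 without KO replicate 3, and *Arc* of 0.60 (SE 0.19, edgeR adjusted p = 0.24).

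By role, the 10 other immediate-early transcription factors tested were all higher in *Myc* KO kidneys, with a median log2 fold change of 0.46 and 6 at an unadjusted p under 0.05. The counts by role stand against 49.9% of all genes with a higher mean and 10.6% higher at an unadjusted p under 0.05. The most abundant of them, *Bhlhe40* (0.41, SE 0.13) and *Csrnp1* (0.75, SE 0.21), had edgeR adjusted p-values of 0.11 and 0.086. Of 18 other immediate-early products 17 were higher (median 0.32, 8 at an unadjusted p under 0.05), among them *Mcl1*, a survival factor, with 0.20 (SE 0.07, edgeR adjusted p = 0.13), and *Ccn2*, a matricellular protein, with 0.32 (SE 0.24, edgeR adjusted p = 0.45). Feedback inhibitors, which end growth factor and MAP kinase signaling, were higher for 14 of 15 (median 0.36, 10 at an unadjusted p under 0.05). *Errfi1*, an inhibitor of the EGF receptor, had 0.37 (SE 0.09, edgeR adjusted p = 0.063) and *Dusp1*, a MAP kinase phosphatase, 0.50 (SE 0.19, edgeR adjusted p = 0.15).

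Kinases and activators, a role that joins kinases with transcription factors and their coactivators, had the median nearest to 0. Of 16, 10 were higher in *Myc* KO kidneys, with a median log2 fold change of 0.08 and 2 at an unadjusted p under 0.05, a share near the 10.6% of all genes; *Map2k2*, which encodes the kinase MEK2, had -0.08 (SE 0.12, edgeR adjusted p = 0.72). AP-1 partners were higher for 8 of 9 (median 0.19), with *Jund* at 0.21 (SE 0.15, edgeR adjusted p = 0.44) and *Mafg* at 0.17 (SE 0.09, edgeR adjusted p = 0.30). Exons of *Jund* share 877 of 1668 bases with an antisense gene. Genes known as AP-1 targets were higher for 12 of 16 (median 0.35), with *Spp1*, which encodes osteopontin, at 0.26 (SE 0.19, edgeR adjusted p = 0.44) and *Plau*, which encodes urokinase, at -0.11 (SE 0.18, edgeR adjusted p = 0.74).

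In *Cxcl12* KO kidneys 73 of the 84 genes were higher, against 50.2% of all genes, with a median log2 fold change of 0.24. edgeR called 0 and DESeq2 4, all higher, against 1.05% of all genes called higher in DESeq2. At an unadjusted p under 0.05, 22 were higher and 1 lower, against 6.41% of all genes higher. Of these 22, 7 were AP-1 targets, 6 other immediate-early products, 4 feedback inhibitors, 3 kinases and activators and 2 AP-1 partners, and 0 were other immediate-early transcription factors. Medians by role were 0.53 for AP-1 targets, 0.32 for other immediate-early products, 0.31 for other immediate-early transcription factors, 0.24 for feedback inhibitors, 0.20 for AP-1 partners and 0.07 for kinases and activators. *Spp1* had a log2 fold change of 0.57 (SE 0.18, edgeR adjusted p = 0.23, DESeq2 adjusted p = 0.030) and *Dusp1* of 0.70 (SE 0.30, edgeR adjusted p = 0.37).

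**Figure D4:**
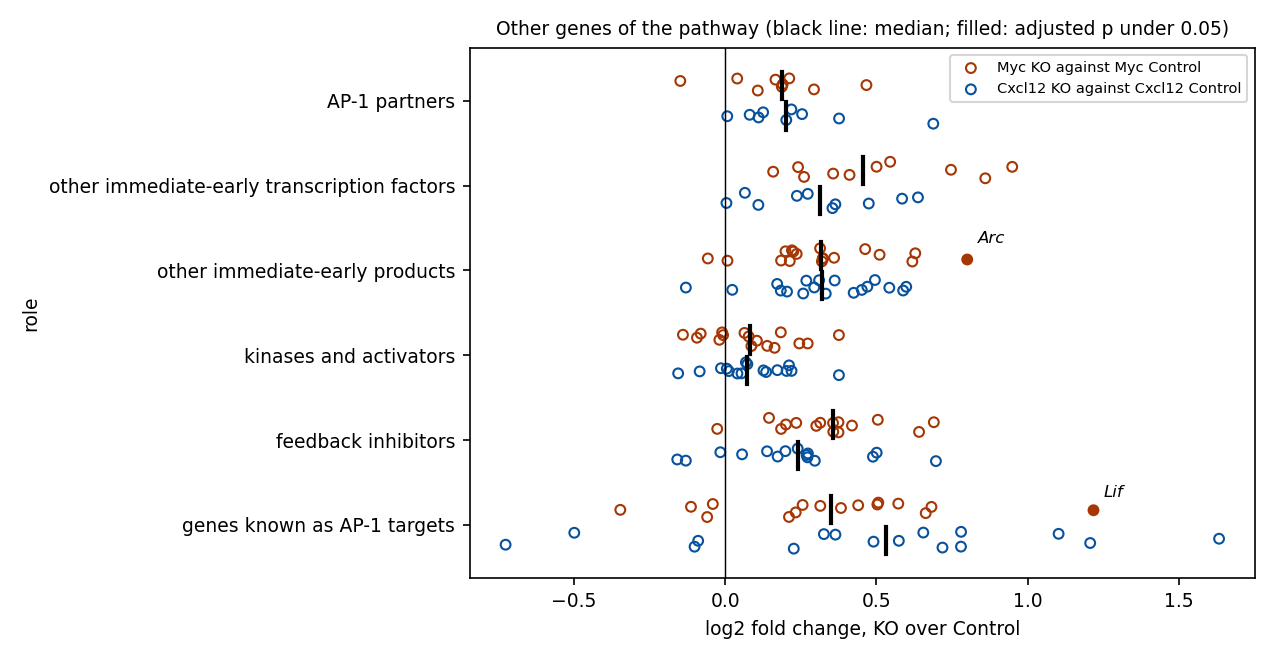
Log2 fold change of KO over control (x axis) of the pathway genes tested, by role (y axis), for the *Myc* (upper, orange) and *Cxcl12* (lower, blue) cohorts, with black lines for medians and filled symbols for an adjusted p under 0.05. Only *Arc* (0.80) and *Lif* (1.22) in the *Myc* cohort are filled, and the medians of kinases and activators (0.08 and 0.07) lie nearest to 0.

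No marker gene of other cells was called in either cohort, but sums of markers differed between some groups. Summed CPM of 6 neutrophil markers was 29.3 to 131 in *Cxcl12* KO and 18.4 to 25.9 in *Cxcl12* control kidneys, and all 5 tested markers were higher at an unadjusted p under 0.05, with 0 called by edgeR; *Ly6g*, a defining marker, stayed between 0.054 and 0.96 CPM. In the same cohort 4 injured tubule markers summed to 2590 to 3146 CPM in KO and 1613 to 2440 CPM in control kidneys, and 7 proximal tubule markers to 3934 to 4430 CPM in KO and 4632 to 5373 CPM in control kidneys. In the *Myc* cohort, neutrophil markers summed to 138 to 261 CPM in KO and 42.6 to 226 CPM in control kidneys, with overlap and 0 of 5 tested at an unadjusted p under 0.05. Injured tubule markers there summed to 2858 to 3345 CPM in KO and 2586 to 3386 CPM in control kidneys, but did not move together. Only 1 of the 4 was higher, *Lcn2*, with a log2 fold change of 0.39 (edgeR adjusted p = 0.27). *Havcr1* had -1.32 (edgeR adjusted p = 0.12), and 1 lower marker had an unadjusted p under 0.05. In the same cohort 5 endothelial markers summed to 632 to 861 CPM in KO and 456 to 738 CPM in control kidneys, with 3 of these 5 higher at an unadjusted p under 0.05. The 3 podocyte markers summed to 481 to 597 CPM in KO and 314 to 542 CPM in control kidneys. All 3 were higher, 2 of them at an unadjusted p under 0.05. B cell markers summed to at most 0.56 CPM and T cell markers to at most 1.98 CPM in any kidney. The kidneys that stood out above carried the highest neutrophil sums of their groups, *Cxcl12* KO replicate 3 with 131 CPM and *Myc* control replicate 3 with 226 CPM, and both also the highest endothelial sums of their groups (643 and 738 CPM). *Cxcl12* KO replicate 4 came near the former, with a neutrophil sum of 123 CPM and an endothelial sum of 570 CPM. It had the lowest *Fos* (17.1 CPM), *Atf3* (21.0 CPM) and *Egr1* (98.5 CPM) of its group. These kidneys were singled out after their values were seen. The part of the marked cell types in the levels of the 10 genes was not tested. Proximal tubule markers were abundant in every kidney (at least 3453 CPM in sum), as the tissue label says.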

How the data were processed

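Whole kidneys of 18 mice were sequenced. Reads were trimmed with Trimmomatic 0.32 and aligned and counted with STAR 2.4.0 on GRCm38, per the submitters' processing notes, and the authors deposited raw counts per gene, not normalized; the column that ignores the strand was used as deposited. Of 45706 gene IDs, 45143 matched GENCODE vM21. Genes were filtered with filterByExpr, scaled by TMM and tested with edgeR 4.0.16 in R 4.3.3, separately by cohort; the difference of the effects used all 18 kidneys. DESeq2 1.42.0 and limma 3.58.1 were alternatives. Correlations were computed on log2 CPM (prior count 2) with 100000 permutations within groups. Fits were tested on simulated data, in which the fit of the difference missed most changes of 1 log2 unit.

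The members and lists were chosen with earlier results of these data known. Named are all members, the targets, pathway genes with an adjusted p under 0.05 in either cohort and the 2 most abundant genes of each role, of which 1 is not reported here. In each of 33 pairs of kidneys within groups, counts were further apart than sampling noise. Alternatives were other scalings, filters and tests, a covariate for or removal of the 6 kidneys with under 5% unmapped reads, a replicate block, a fit of all kidneys and leaving out each kidney.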

Additional observations from a re-analysis of the deposited data

Results flagged for a closer look

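In 3 of 30 sets of kidneys tested, each a gene in a group of 5, 1 kidney lay far from the others by Dixon's ratio of gap to range at the 95% level, which chance gives in about 1 of 20. *Fos* had 68.5 CPM in *Cxcl12* KO replicate 3, against 17.1 to 28.4 CPM in the other 4 KO kidneys. *Fosb* had 22.5 CPM in the same kidney, against 6.90 to 11.4 CPM. *Egr1* had 476 CPM in *Myc* control replicate 3, against 221 to 272 CPM in the other 4 controls.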

How the results depend on the processing

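Limits. With 3 to 5 kidneys a group, the adjusted p of *Fos* and *Fosl2* lay near the threshold. In the *Myc* cohort, members called numbered 4 in DESeq2, 1 (*Fosl2*) with all 18 kidneys in one fit, 0 without the 6 kidneys with under 5% unmapped reads and 0 to 7 when leaving out 1 kidney. Pathway genes called there numbered 20, 7, 0 and 2 to 18 in the same order, and 6 with the 6 kidneys as a covariate. In the *Cxcl12* cohort, DESeq2 called 1 member, and pathway genes called numbered 4 in DESeq2, 1 without a filter, 2 with the covariate and 1 without the 6 kidneys. Relations with *Fos* that passed by r numbered 2 without the 2 farthest kidneys, 1 of them (*Ier3*) also by rho, and 0 without the 6 kidneys. With the replicate number as a block, 1 member (*Fos*) and 1 pathway gene were called in the *Myc* cohort and none in the *Cxcl12* cohort. Same-numbered KO and control kidneys correlated from -0.14 to 0.34 and from -0.05 to 0.17 in these cohorts. Other KO and control pairs correlated from -0.51 to 0.43 and from -0.17 to 0.21. So few pairs cannot tell whether the numbers pair kidneys by litter or surgery day. *Fosl1* in the *Myc* cohort turned to 0.26 without the 6 kidneys and ran from -0.19 to 0.085 when leaving out 1 kidney. The difference between the cohorts' effects turned in sign in limma voom for *Fos* (0.028), *Fosb* (0.29) and *Atf3* (0.18) and with the covariate for *Junb* (-0.018). Leaving out 1 kidney, it ran from -0.36 to 0.26 for *Fos*, -0.24 to 0.36 for *Fosb*, -0.47 to 0.21 for *Atf3*, -0.30 to 0.13 for *Egr1*, -0.29 to 0.15 for *Ier3*, -0.24 to 0.078 for *Klf6*, -0.0067 to 0.22 for *Fosl2* and -0.042 to 0.23 for *Junb*. For *Lif* and *Arc*, whose alternatives were chosen after seeing the data, the *Myc* KO effect ran from 1.12 to 1.30 and from 0.74 to 0.86 over 18 alternatives, and the call was lost in 1 and 2 of them. Genes called in all numbered 21 to 877 without 1 kidney and 8 to 1139 in the other *Myc* fits. In the *Cxcl12* fits they numbered 0 to 15 and 0 to 355. The causes were not tested.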
